A study of Mus musculus with 2 samples.

Results

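The genes of mitosis and chromosome segregation were followed through mammary epithelium near term in mice lacking Ehf, which encodes an epithelial transcription factor of the ETS family, and in wild type mice. The set held 44 genes taken by symbol from a fixed list of proteins that drive or carry out cell division, and all 44 were found among the 25865 features with a gene symbol. The rule uses symbols only, not measured values, but the list was chosen with earlier results of these data known. For them 2 quantities were read in luminal, basal and hormone-sensing cells: the share of cells that carried their transcripts as dividing cells do, and their level.

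The study held 1 library of Ehf knockout cells, labelled EhfKO, and 1 library of wild type cells. Both came from adult females at 18.5 days of pregnancy, and the glands of 2 females per genotype were pooled before sorting. Thoracic and inguinal glands were dissociated, and live cells negative for Ter119, CD31 and CD45, the surface marks of red cells, endothelium and leukocytes, were sorted and run on the 10x Chromium 3' V3 chemistry. Allele, Cre promoter (if any) and genetic background: not given in the sources used here. The animals, sort and library also differed between the genotypes, and their effects cannot be told apart from that of the genotype. With 1 library per genotype no test could be run. The intervals below are at 95%, cover counting error only and say nothing of the spread between mice. Those of levels and ratios count each UMI as independent, so they do not cover the draw of cells either.

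The knockout library held 7275 barcodes and 40066795 unique molecular identifiers (UMIs), and the wild type library 11258 barcodes and 48720938 UMIs. After filtering, 6558 and 9055 cells stayed, with median depths of 3835 and 2458 UMIs. The classes, named from clusters by marker genes, were luminal (826 knockout and 2541 wild type cells, joining alveolar-like and progenitor-like clusters), basal (5519 and 6200) and hormone-sensing (151 and 136). Non-epithelial cells made up 62 and 178. Levels are in CPM, here UMIs per 1000000 UMIs outside 12 milk protein genes. Basal markers, 11 genes, summed to 32460 CPM in knockout and 41922 in wild type basal cells, and to 1219 and 1137 CPM in luminal cells. Ehf itself had 1078 UMIs in knockout luminal cells, or 91.9 CPM, against 3291 UMIs or 191 CPM in the wild type. The library labelled knockout thus still held Ehf 3' tags. Since the deleted stretch of the gene is unknown here, these tags check the label only in part. Luminal cells differed in depth and in milk: the median knockout cell held 10329 UMIs with 3.93% casein transcripts, the median wild type cell 8892 UMIs with 26.7%. The libraries shared 25 barcodes. Markers of the sorted-out types were low in luminal cells: 9 immune genes summed to 7.33 and 8.12 CPM, 6 endothelial genes to 1.53 and 2.96, and 6 fibroblast genes to 16.5 and 13.6.

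Mitosis is run by cyclin-dependent kinase with its cyclins, is held at a checkpoint until every kinetochore has caught the spindle, and is released when the anaphase-promoting complex marks cyclin B and securin for destruction. The transcripts of these genes are held down in resting cells and rise together late in the cell cycle, under the DREAM and B-MYB to FOXM1 programme, which acts through short promoter elements called CHR (cell cycle genes homology region) together with CCAAT boxes bound by NF-Y. In the mammary gland, alveolar cells divide through pregnancy and slow down as secretion sets in toward term, and luminal progenitors are the dividing source of the alveolar lineage.

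Letter matches to these elements were common in the promoters of the set. The RefSeq promoter table (GRCm38.p6), which gives 250 bases before to 50 after each start, matched 38 of the 44 genes with 40 windows of 300 bases. Both strands were searched for CCAAT and for the usual spellings of the CHR, TTTGAA and TTCGAA. Neither CHR spelling contains the CCAAT letters. Of the member windows, 30 of 40 (75.0%) held TTTGAA or TTCGAA, against 19.2% of all 32851 windows, and 27 (67.5%) held one within 50 bases of the start, against 5.31%. CCAAT stood in 30 of 40 (75.0%) against 37.4%, and windows with both kinds made up 65.0% of members and 7.52% of all. These are letter matches, not bound sites. The 5 windows below are shown because the results turn on these genes: Anln, Cenpf and Aurka had the highest luminal ratios of their groups, Prc1 carries 1 match of each kind close together, and Spc25 is the member that stood apart. Each runs 5′ to 3′ along the gene's strand, with matches in capitals.
Anln, chr9:22389157-22389456, minus strand: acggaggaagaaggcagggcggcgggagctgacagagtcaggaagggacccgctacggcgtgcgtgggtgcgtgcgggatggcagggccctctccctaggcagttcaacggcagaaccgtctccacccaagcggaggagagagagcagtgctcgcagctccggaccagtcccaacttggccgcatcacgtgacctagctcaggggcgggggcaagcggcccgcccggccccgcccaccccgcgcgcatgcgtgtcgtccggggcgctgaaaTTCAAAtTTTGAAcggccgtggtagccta
Cenpf, chr1:189688037-189688336, minus strand: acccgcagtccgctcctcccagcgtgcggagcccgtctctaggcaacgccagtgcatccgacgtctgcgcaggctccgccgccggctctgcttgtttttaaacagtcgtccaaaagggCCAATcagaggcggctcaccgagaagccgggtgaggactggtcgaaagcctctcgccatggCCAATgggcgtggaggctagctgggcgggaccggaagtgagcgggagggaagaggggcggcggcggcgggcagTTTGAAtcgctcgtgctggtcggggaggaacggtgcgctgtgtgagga
Prc1, chr7:80294201-80294500, plus strand: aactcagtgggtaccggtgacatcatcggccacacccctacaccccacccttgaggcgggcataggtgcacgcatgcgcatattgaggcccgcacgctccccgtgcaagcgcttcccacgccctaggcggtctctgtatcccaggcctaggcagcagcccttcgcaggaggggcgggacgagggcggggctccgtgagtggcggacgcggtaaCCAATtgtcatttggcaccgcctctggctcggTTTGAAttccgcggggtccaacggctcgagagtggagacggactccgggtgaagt
Aurka, chr2:172370521-172370820, minus strand: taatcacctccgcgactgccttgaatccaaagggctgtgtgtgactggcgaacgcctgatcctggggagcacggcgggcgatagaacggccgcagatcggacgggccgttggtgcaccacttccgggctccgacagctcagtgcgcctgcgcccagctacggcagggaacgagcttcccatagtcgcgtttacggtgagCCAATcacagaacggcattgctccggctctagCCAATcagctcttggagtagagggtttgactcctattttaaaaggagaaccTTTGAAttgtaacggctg
Spc25, chr2:69206164-69206463, minus strand: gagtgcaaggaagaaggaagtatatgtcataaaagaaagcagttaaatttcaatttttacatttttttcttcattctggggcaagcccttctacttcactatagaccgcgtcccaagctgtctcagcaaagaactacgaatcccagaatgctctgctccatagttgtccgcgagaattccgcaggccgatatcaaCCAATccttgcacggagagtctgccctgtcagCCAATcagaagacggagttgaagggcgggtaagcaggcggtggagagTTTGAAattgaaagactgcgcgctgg
In Cenpf the TTTGAA match begins at base 3 after the start, with CCAAT beginning at -71 and -132. The Anln window holds TTTGAA once on each strand, at 22 and 29, and no CCAAT. Spc25 has matches of both kinds, with TTTGAA at 25 and CCAAT at -23 and -55.

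In luminal cells nearly the whole set stood higher in the knockout library, and more of its cells were mitotic. A cell was called mitotic when it held at least 3 UMIs of 34 core genes after thinning to 1500 UMIs outside milk protein genes. This is a range cut from a count, not a cell type, and it does not place a cell in M phase. The 28 DNA replication genes read further on also stood higher in these luminal cells than in the other luminal cells. They reached 1960 against 1276 CPM in the knockout and 1124 against 433 CPM in the wild type. The core left out Mad2l1, Knstrn, Smc2, Smc4, Ncapd2, Tacc3, Hmgb2, H2az1, Stmn1 and Cks2, whose products also work outside mitosis or are less surely tied to it. By this count 241 of 809 knockout luminal cells were mitotic, or 29.8% (26.7 to 33.1), and 294 of 2424 wild type luminal cells, or 12.1% (10.9 to 13.5). The difference was 17.7 percentage points (14.3 to 21.1), a 2.46-fold share. Another 17 knockout and 117 wild type cells were too shallow to thin. Many cells lay near the threshold, with no gap in the counts: 51 knockout and 113 wild type cells held 2 core UMIs, and 36 and 61 held 3. At 2 or more core UMIs the shares were 36.1% and 16.8%, and at 5 or more 20.9% and 7.92%. At the other end 48 knockout (5.93%) and 50 wild type cells (2.06%) held 10 or more, while cells with 0 core UMIs made up 47.5% in the knockout library and 71.8% in the other.

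**Figure D1:**
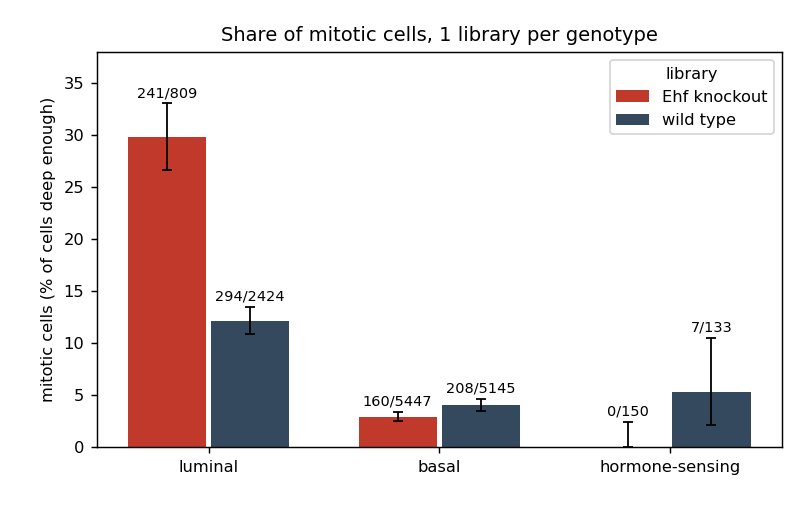
Share of mitotic cells (y axis, percent of cells with at least 1500 UMIs outside milk protein genes) in luminal, basal and hormone-sensing cells of the knockout and wild type library; bars are 1 library each, error bars are exact 95% binomial intervals and the fractions give the cells. The luminal bars stand at 29.8% and 12.1%, while the basal bars lie below 5% and the knockout hormone-sensing bar is at 0.

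**Figure D2:**
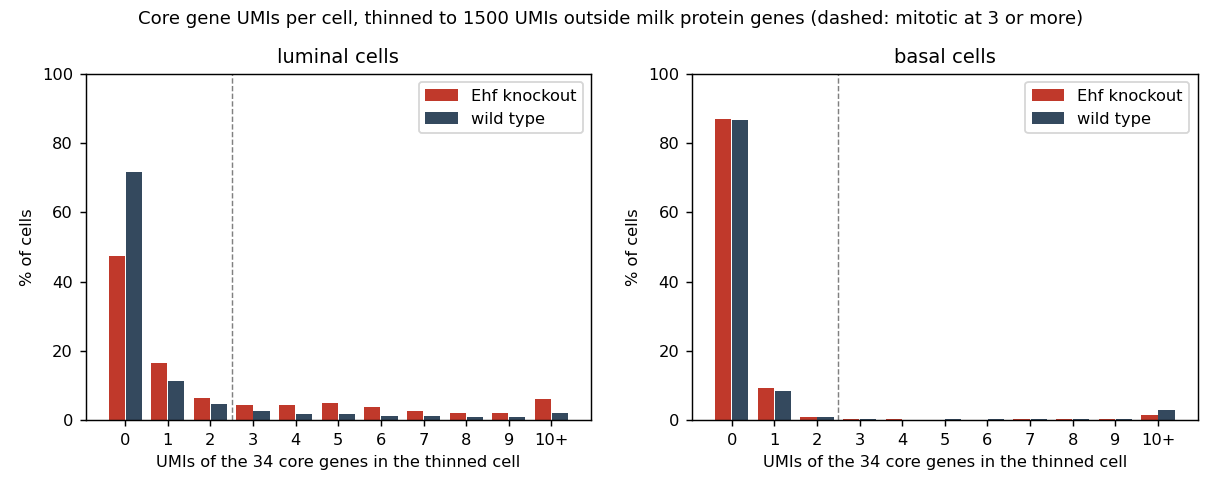
Percent of luminal cells (left) and basal cells (right) by their number of core gene UMIs after thinning, for each library, with 10 or more joined in the last bar and the mitotic threshold dashed. In luminal cells the knockout bars exceed the wild type bars at every count from 1 upward, while in basal cells both libraries have most cells at 0 and a separate group at 10 or more.

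The mitotic luminal cells of the 2 libraries lay in different clusters. In the knockout 214 of the 241 were in the progenitor-like cluster (marked by Kit), where 30.7% of 696 cells were mitotic against 30 of 250 wild type cells. In the wild type 101 were in the main alveolar-like cluster, at 5.92% of 1706 cells, against 14.6% of 82 knockout cells. Most other wild type mitotic cells, 148, were in an alveolar-like cluster led by histone genes, where 68.8% of 215 wild type and 51.7% of 29 knockout cells were mitotic. The knockout share was thus higher within the alveolar-like and within the progenitor-like cluster, by 8.71 and 18.7 points. In the histone-led cluster it was lower by 17.1 points, with an interval of the difference from -35.4 to 0.976. Without that cluster the luminal shares were 29.0% and 6.61%. Histone genes were not left out of the clustering, and the histone-led cluster held 148 of 294 wild type but 15 of 241 knockout mitotic cells. The shares within the other clusters leave those cells out.

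The levels moved with the shares. The 2 are not separate results, since the shares count UMIs of 34 of the same 44 genes. Of 44 members, 43 were at least 1.5-fold higher in knockout luminal cells and 0 at least 1.5-fold lower, where 31.2% of the 11144 genes tested were higher and 10.6% lower. The median log2 ratio of the members, knockout over wild type, was 1.30 and that of all genes 0.31. With the median of all genes set to 0, 40 of 44 members were past 1.5-fold higher against 15.4% of all genes, and the members' median was 0.99. The 34 core genes together stood at 1982 CPM in the knockout against 809 in the wild type. In bulk sums such as these, more dividing cells and more transcripts per dividing cell cannot be told apart, and the split by mitotic state further on separates them only as far as the count per cell allows.

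The same reading was made inside the progenitor-like and main alveolar-like clusters, which leaves out the cells of the histone-led one. In the progenitor-like cluster 42 of 44 members were past 1.5-fold higher and 0 lower, where 14.7% of all genes were higher and 10.1% lower. The members' median there was 1.26, with all genes at 0.06. In the main alveolar-like cluster 34 members had enough UMIs, of which 21 were higher and 1 lower, Spc25, where 19.3% of all genes were higher and 14.1% lower, and the median was 0.74.

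The role groups that follow are read beside the shares over all luminal genes, 31.2% higher and 10.6% lower, and the median of all genes, 0.31. Among cyclins, kinases and anaphase control, 10 of 10 genes were higher, with a median log2 ratio of 1.16. The group held Cdk1, the mitotic kinase, its partners Ccna2, Ccnb1 and Ccnb2, and its adaptor Cks2. It also held Plk1 and Aurka, kinases of centrosome and spindle assembly, with Cdc20 and Ube2c, which run the anaphase-promoting complex, and Cdca3. Aurka had the highest ratio of the group: 165 UMIs or 14.1 CPM in the knockout and 92 UMIs or 5.33 CPM in the wild type, a log2 ratio of 1.40 (1.02 to 1.78). Cks2 had the lowest, with 2052 UMIs (175 CPM) against 1709 (99.1), or 0.82 (0.73 to 0.91). Cks2 was within 1.5-fold once the median of all genes was set to 0.

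The kinetochore joins chromosomes to spindle microtubules, and checkpoint proteins on it hold anaphase back. Here 10 of 11 genes were higher, with a median of 1.27. Cenpf, a large kinetochore protein of G2 and mitosis, led with 992 UMIs or 84.5 CPM against 468 or 27.1, a log2 ratio of 1.64 (1.48 to 1.80). The centromeric histone Cenpa, the kinesin Cenpe, the checkpoint genes Bub1, Bub1b, Mad2l1 and Ttk, and Knstrn lay between 1.11 and 1.60. Spc25 was the only one of the 44 genes below 0 in luminal cells, where 69.8% of all genes tested lay above 0: 355 UMIs or 30.3 CPM in the knockout against 586 or 33.98 in the wild type, a log2 ratio of -0.17 (-0.36 to 0.03), which turned to 0.40 on all UMIs and to 0.47 without the histone-led cluster. Its protein is a subunit of the NDC80 complex, the microtubule grip of the kinetochore, and the other 2 subunits in the set did not share its pattern. Ndc80 had 137 against 69 UMIs, 11.7 and 4.00 CPM, with a log2 ratio of 1.55 (1.12 to 1.98). Nuf2 had 132 against 89 UMIs, 11.2 and 5.16 CPM, with 1.12 (0.73 to 1.53).

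The Spc25 exception followed the clusters. In the progenitor-like cluster it stood at 30.4 CPM in the knockout against 12.9 in the wild type, the direction of the other members. In the main alveolar-like cluster the order was the other way, with 6 UMIs in 89 knockout cells (9.19 CPM) and 223 UMIs in 1797 wild type cells (20.7). There Ndc80 had 13 and Nuf2 27 UMIs in the wild type, 1.21 and 2.51 CPM, against 6.13 and 9.19 in the knockout. In the histone-led cluster Spc25 stood at 67.2 CPM in the knockout against 110 in the wild type. In a second, acute-phase alveolar-like cluster, almost all of it wild type, it had 65 UMIs in 257 cells beside 1 of Ndc80 and 3 of Nuf2. Spc25 was thus detected in more wild type alveolar-like cells than its partners: 165 of the 1797 cells of the main cluster held an Spc25 UMI and 12 an Ndc80 UMI. Levels of different genes were not compared per length, and 3' capture may differ between them. No other gene of the GENCODE annotation overlaps Spc25.

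The chromosomal passenger complex corrects faulty attachments and later directs cytokinesis. Its 3 genes were all higher, with a median of 1.41. Aurkb, its kinase, had 383 UMIs or 32.6 CPM against 180 or 10.4, a log2 ratio of 1.64 (1.39 to 1.91). Birc5 (survivin) had the lowest ratio of the group, 1266 UMIs or 108 CPM against 761 or 44.1, at 1.29 (1.16 to 1.42), and Cdca8 (borealin) was at 1.41.

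The spindle group, motors and microtubule proteins, was higher in 7 of 7 genes, with a median of 1.35. Stmn1 (stathmin), which frees tubulin from microtubules, had 5765 UMIs or 491 CPM in the knockout and 2099 or 122 in the wild type, a log2 ratio of 2.01 (1.94 to 2.09). At the other end Hmmr, a microtubule-bound spindle pole protein, had 415 UMIs or 35.4 CPM against 380 or 22.0, at 0.68 (0.48 to 0.89). Hmmr and Tacc3 (0.78) were within 1.5-fold once the median of all genes was set to 0. The bipolar kinesin Kif11, the depolymerizing kinesin Kif2c, Tpx2 and Nusap1 lay between 1.30 and 1.48.

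Genes of the midzone and cytokinesis, which cut the cell after anaphase, were higher in 6 of 6, with a median of 1.41. Anln (anillin), the scaffold of the contractile ring, had the highest ratio of all 44 genes: 253 UMIs or 21.6 CPM against 91 or 5.28, a log2 ratio of 2.03 (1.68 to 2.39). Ect2, which activates RhoA at the ring, had 195 UMIs or 16.6 CPM against 153 or 8.87, at 0.91 (0.59 to 1.22). Kif20a, Kif20b, Kif23 and the midzone bundler Prc1 ranged from 1.03 to 1.68. A gene of the opposite strand overlaps the last 1000 bases of Prc1, Kif20a, Ccna2, Ube2c and Cdc20, and the sources used here do not say whether counting used the strand.

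Chromosome genes, which condense, untangle and package DNA, were higher in 7 of 7, with a median of 1.37. Hmgb2, a DNA-bending protein, had 3946 UMIs or 336 CPM against 1583 or 91.8, a log2 ratio of 1.87 (1.79 to 1.96). Mki67 (Ki-67), the coat of mitotic chromosomes and the common stain for cycling cells, had the lowest ratio of the group: 1818 UMIs or 155 CPM against 1241 or 72.0, at 1.11 (1.00 to 1.21). Topoisomerase Top2a, the condensin genes Smc2, Smc4 and Ncapd2, and the histone variant H2az1 lay between 1.25 and 1.64.

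**Figure D3:**
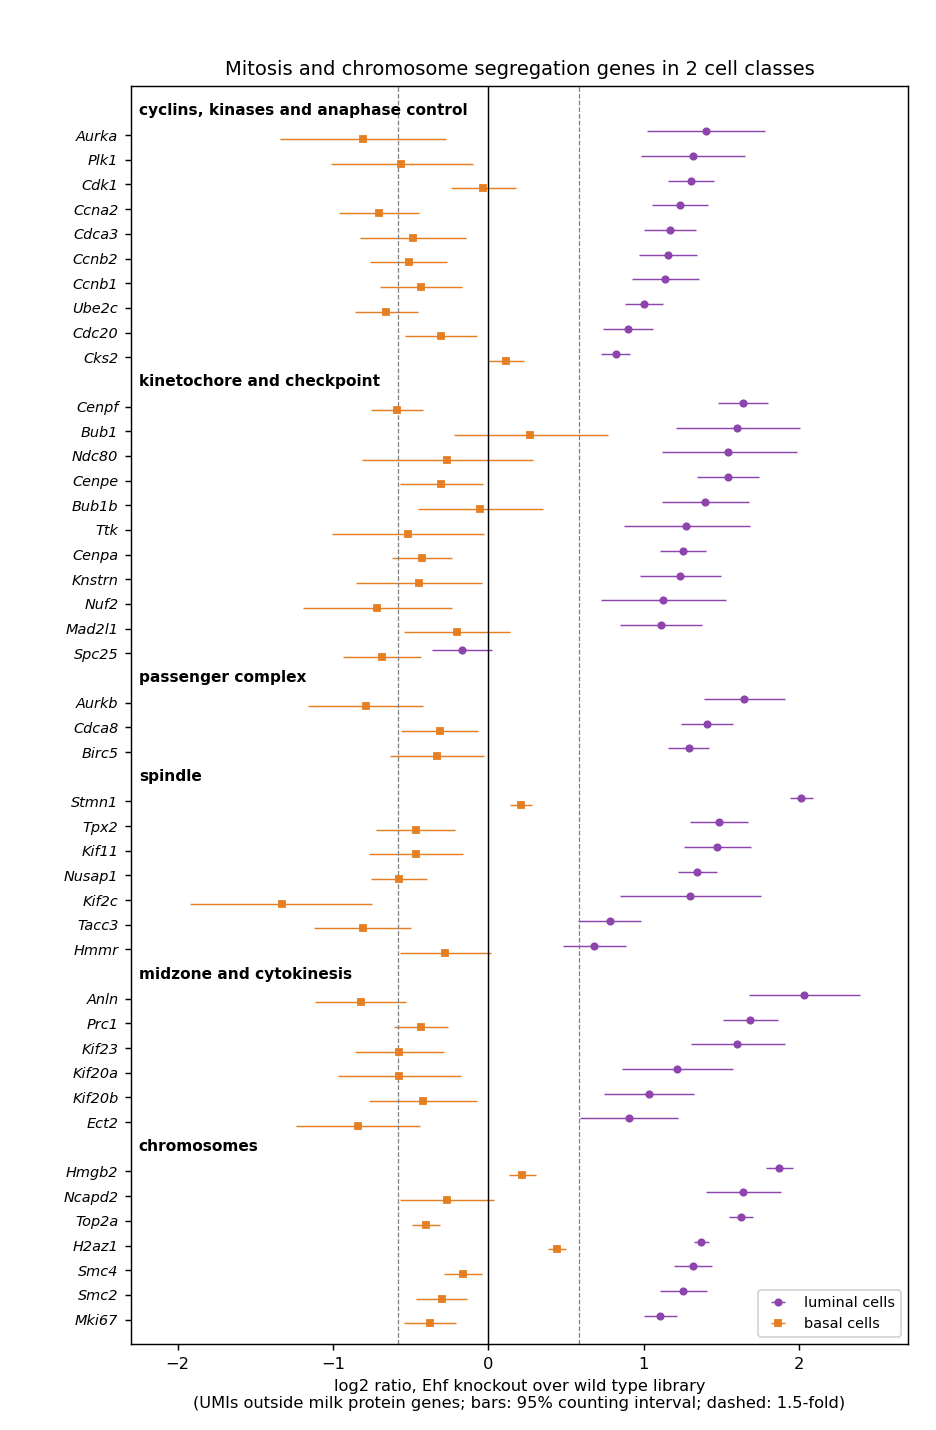
Log2 ratio of knockout over wild type levels (x axis, UMIs outside milk protein genes) for each of the 44 genes in luminal cells (circles) and basal cells (squares), grouped by role; bars are exact 95% counting intervals and dashed lines mark 1.5-fold. All luminal circles but Spc25 lie right of the upper dashed line, and most basal squares lie left of 0.

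Within mitotic luminal cells the libraries were much closer. Since the core genes chose these cells, their values here are a description. The core stood at 3650 CPM in 241 knockout and 3411 in 294 wild type mitotic cells, and the median thinned cell held 6 core UMIs in both. In these cells 4 of 44 members were past 1.5-fold higher and 2 lower, where 18.3% of 8848 genes were higher and 9.82% lower. The members' median log2 ratio was 0.15 and that of all genes 0.16. Stmn1 (748 against 398 CPM, log2 ratio 0.91), Hmgb2 (569 against 326, 0.80) and Ncapd2 (61.2 against 37.6, 0.70), all outside the core, were higher, as was the core gene Anln (40.3 against 22.0, 0.88). Spc25 was lower, with 270 UMIs or 53.1 CPM against 352 or 123, at -1.21 (-1.44 to -0.97), and so was Hmmr, with 68.5 against 104 CPM, at -0.60 (-0.82 to -0.37). Ncapd2 was named after its value was seen.

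The cells below the threshold also differed. Since the core genes chose these cells too, their core values are a description, and cells with 1 or 2 core UMIs remain among them. In the knockout 16.4% of luminal cells held 1 core UMI and 6.30% held 2, in the wild type 11.4% and 4.66%. In the other luminal cells, 568 knockout and 2130 wild type, 40 of the 41 members with enough UMIs were past 1.5-fold higher, against 29.7% of 10438 genes, and 0 lower, against 10.7%. Their median was 1.32, with all genes at 0.29. Apart from the core, 10 of 10 members were higher, and within it 30 of 31. The core stood at 706 CPM in the knockout against 287 in the wild type. Basal cells below the threshold held 81.0 and 72.5 CPM, and their median depths were 3604 and 2146 UMIs. Of the UMIs of each core gene in luminal cells, 75.4% to 86.4% came from mitotic cells in the knockout and 56.0% to 80.3% in the wild type. Mki67 had the lowest share in the wild type, at 56.0%. Of all UMIs outside milk protein genes, mitotic cells gave 43.4% in knockout and 16.8% in wild type luminal cells. Mitotic luminal cells were deeper than the others, with medians of 16713 against 9207.5 UMIs in the knockout and 12259 against 8896.5 in the wild type. Their median doublet scores were higher too, 0.097 against 0.076 in the knockout and 0.059 against 0.034 in the wild type. The luminal difference in mitotic share was 13.5 points with cells thinned to 1000 UMIs, 21.7 at 2500 and 29.1 without thinning, and 18.7 with cells above the wild type doublet threshold left out.

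**Figure D4:**
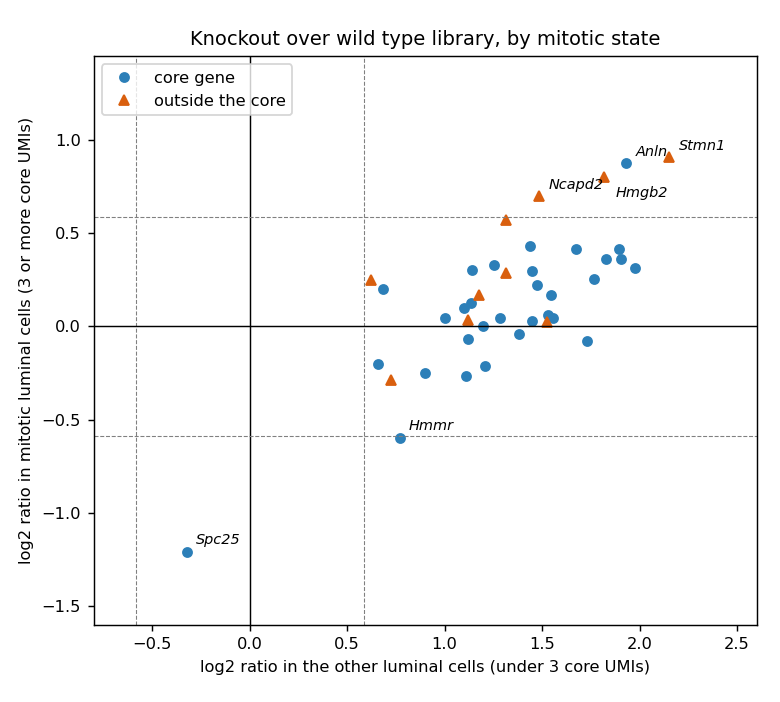
Log2 ratio of knockout over wild type in mitotic luminal cells (y axis) against that in the other luminal cells (x axis), 1 point per gene for the 41 genes with at least 50 UMIs in the latter, core genes as circles and others as triangles, with 1.5-fold dashed. Most points lie past 1.5-fold on the x axis and near 0 on the y axis, with Spc25 at the lower left and Stmn1 at the upper right.

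Casein transcripts mark how far a luminal cell has gone toward secretion, so the mitotic share was read by casein share of the cell's UMIs. In the knockout it was 24.4% of 307 cells below 2% casein, 40.8% of 147 cells at 2 to 5%, 35.3% of 156 at 5 to 10%, 30.9% of 136 at 10 to 20% and 14.3% of 63 at 20% and over. The knockout share was therefore highest at low to middle casein and lowest in the cells richest in casein. In the wild type it was 6.67% (4 of 60), 7.50% (3 of 40), 23.8% (19 of 80), 12.9% (42 of 325) and 11.8% (226 of 1919). The wild type share peaked at 5 to 10% casein, and 226 of its 294 mitotic cells lay at 20% casein and over, as did 1919 of its 2424 luminal cells. Basal and non-epithelial cells held casein transcripts too, and more in the wild type. Their median casein shares were 0.80% and 0.61% in the wild type, against 0.09% and 0.08% in the knockout. The same range, above all a low one, may thus not hold cells of the same state in both libraries, which was not tested.

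The ranges held different mixes of clusters in the 2 libraries, most of all from 5% casein up. The progenitor-like cluster made up 94.9% of knockout and 94.1% of wild type cells below 2% casein. At 2 to 5% it made up 94.6% and 84.4%, and at 5 to 10% 90.6% and 63.6%. At 10 to 20% the values were 76.4% and 25.6%, and at 20% and over 23.8% and 1.15%. The knockout exceeded the wild type in mitotic share in all 5 ranges. The interval of the difference lay off 0 in 3 of them: below 2%, 2 to 5% and 10 to 20%. At 20% and over the difference was 2.51 points, within counting error. The core level, which rests on the same genes as the mitotic share, followed the same course, from 1939 against 634 CPM below 2% casein to 852 against 789 at 20% and over. Weighted to the wild type's casein ranges, the knockout share was 17.9% against 12.1%, a difference of 5.76 points with a counting standard error of 3.60. With the wild type weighted to the knockout's ranges the shares were 11.6% and 29.8%. With 5 ranges of equal cell number the first difference was 2.31 points, and the knockout was higher in 3 of 5. Wild type cells below 2% casein were shallow, at a median of 2902 UMIs against 6812.5 in the knockout. With cells thinned to 1000 UMIs the difference weighted to the wild type's ranges was 3.28 points.

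**Figure D5:**
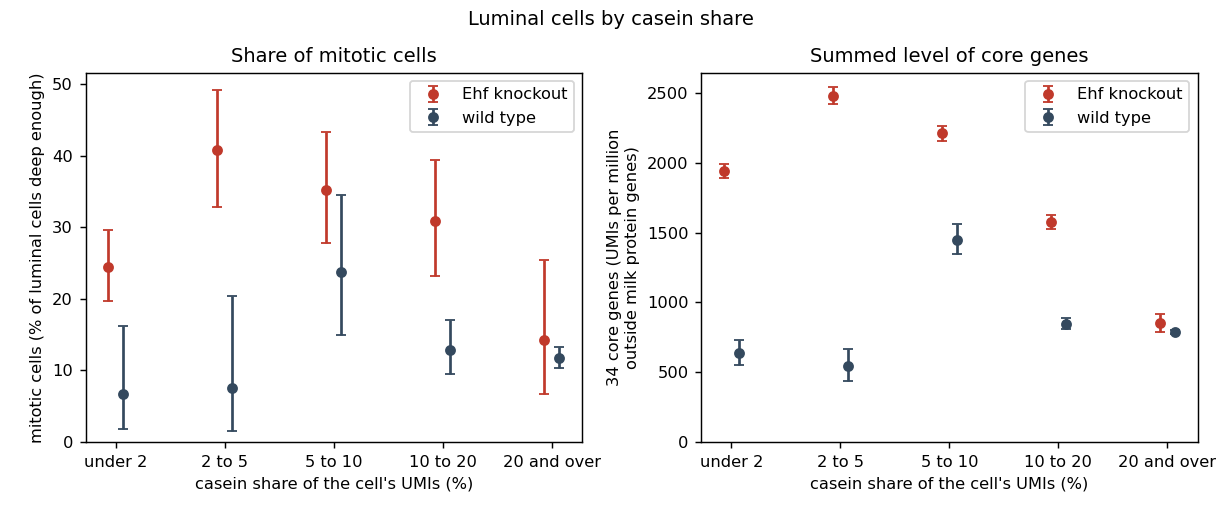
Luminal cells by casein share of their UMIs (x axis): percent of mitotic cells with exact 95% binomial intervals (left) and summed level of the 34 core genes in CPM with Poisson intervals (right), for each library. The knockout points stand at 24.4% below 2% casein, 40.8% at 2 to 5% and, falling from there, 14.3% at 20% and over, next to the wild type point at 11.8%.

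In basal cells, the contractile layer around the alveoli, the set leaned the other way, and by less. Mitotic cells were 160 of 5447 in the knockout, or 2.94% (2.51 to 3.42), and 208 of 5145 in the wild type, or 4.04% (3.52 to 4.62), a difference of -1.11 points (-1.81 to -0.41). Thinning left out 72 knockout and 1055 wild type cells, and with these counted as not mitotic the shares were 2.90% and 3.35%. Without thinning the order turned, at 4.26% and 3.87%, in cells with a median of 3622 UMIs in the knockout against 2015.5 in the wild type. Most mitotic basal cells, 111 and 172, lay in 1 cluster, where 92.5% and 91.5% of cells were mitotic. Over all mitotic basal cells the core stood at 7715 CPM in the knockout against 9464 in the wild type, with 10 and 13 core UMIs in the median thinned cell. These core values are a description, since the core genes chose the cells.

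Of 44 members 0 were past 1.5-fold higher in knockout basal cells and 11 lower, where 5.64% of 12208 genes were higher and 7.22% lower. The median log2 ratio was -0.43, with all genes at -0.03. The midzone and cytokinesis group had the lowest median, -0.57, and the chromosome group the highest, -0.27. Kif2c had the lowest ratio of all, with 43 UMIs or 1.81 CPM against 65 or 4.54, at -1.33 (-1.92 to -0.75). Ect2 had 105 UMIs or 4.41 CPM against 113 or 7.89, at -0.84. Anln had 190 or 7.98 CPM against 202 or 14.1, at -0.82, and Tacc3, a spindle microtubule protein, 167 or 7.01 CPM against 176 or 12.3, at -0.81.

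In basal cells 5 of 44 members lay above 0, where 46.6% of all genes did, and all 5 were within 1.5-fold. H2az1 had 7255 UMIs or 305 CPM against 3215 or 224, a log2 ratio of 0.44 (0.38 to 0.50). Bub1, a checkpoint kinase, had 106 or 4.45 CPM against 53 or 3.70, at 0.27 (-0.22 to 0.77). Hmgb2 had 3040 or 128 CPM against 1571 or 110, at 0.22, and Stmn1 4642 or 195 CPM against 2417 or 169, at 0.21. The other was Cks2, at 0.11. Apart from Bub1 these are genes outside the core, and smaller shares of their UMIs than of Top2a came from mitotic cells. For H2az1 the share was 20.5% in knockout and 28.5% in wild type basal cells, beside 83.0% and 91.2% for Top2a and 4.90% and 6.35% for all UMIs outside milk protein genes.

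Within mitotic basal cells 0 members were past 1.5-fold higher and 7 lower, where 7.6% of genes were higher and 7.4% lower, with a median of -0.27. The 7 were Aurka, Aurkb, Kif2c, Anln, Ect2, Spc25 and Tacc3, all but Tacc3 core genes. Since the core genes chose both the mitotic and the other basal cells, core values in either are a description. In the other basal cells 25 members had enough UMIs. Of these 2 were higher, Cdk1 (1.18) and Cks2 (0.64), and 1 lower, Kif20b (-0.65), where 5.86% of genes were higher and 7.03% lower. The median of the 25 was 0.16, with all genes at -0.02, so below the threshold the set did not lean lower.

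In all, 10 members were past 1.5-fold in opposite directions in the 2 classes, higher in luminal and lower in basal knockout cells: Ccna2, Cenpf, Ube2c, Aurka, Aurkb, Kif2c, Anln, Ect2, Nuf2 and Tacc3. Of the 10523 genes with enough UMIs in both classes, 1.37% did so. The difference between the classes was not tested. Where only cells with at least 1000 genes and 2000 UMIs were kept, which left 5271 knockout and 3058 wild type basal cells, 34 members were lower in basal cells, where 8.36% of all genes were, and the median was -0.95, with all genes at -0.05. The size of the basal level difference thus moved with the depth filter, while the members' median was below 0 under the scalings and cell filters run.

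Hormone-sensing cells, which carry the oestrogen and progesterone receptors and signal to their neighbours, held few dividing cells. None of 150 knockout cells was mitotic, which allows up to 2.43% by the exact interval, and 7 of 133 wild type cells were, or 5.26% (2.14 to 10.54). The difference was -5.26 points (-10.47 to -1.59), and with another random draw of the thinning the shares were 1.33% and 4.51%. With all 44 members counted in place of the core, the difference turned to 7.81 points. The core stood at 153 CPM in the knockout against 581 in the wild type. In the wild type 369 core UMIs came from the 7 mitotic cells and 76 from 126 others, which the intervals of the ratios below do not take into account. Of the set, 7 genes had at least 50 UMIs here, 6 of them outside the core. Stmn1 was higher, with 425 UMIs or 357 CPM against 114 or 149, at 1.26 (0.96 to 1.57). Top2a was lower, with 35 or 29.4 CPM against 127 or 166, at -2.50 (-3.08 to -1.95), and so was Hmgb2, with 56 or 47.1 CPM against 63 or 82.3, at -0.81 (-1.35 to -0.26). Among 4743 genes tested 9.76% were higher and 12.8% lower. The wild type cells of this class also held more alveolar marker transcripts, with 12 genes summing to 127053 CPM against 1676 CPM in the knockout. The sum does not describe the typical cell, as the median milk share was 0.69% in the wild type and 0.10% in the knockout. The median casein share was 0.37% in the 7 wild type mitotic cells and 0.49% in the others. The part of these transcripts in the values above was not tested. H2az1, Smc4, Cks2 and Mad2l1 lay within 1.5-fold, at 0.01, 0.13, -0.19 and -0.40.

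Other genes of the pathway were read in luminal cells for comparison. Of 51 further mitosis genes 49 had enough UMIs, and 46 were past 1.5-fold higher and 0 lower, with a median log2 ratio of 1.17. For this and the next lists, the shares over all luminal genes were 31.2% higher and 10.6% lower. The highest were Fbxo5 (2.49), an inhibitor of the anaphase-promoting complex, Psrc1 (2.25) and Kif15 (2.00), a spindle kinesin. Those at the low end were Tubb4b (0.21), a beta tubulin, Cks1b (0.42) and Bora (0.52). Among regulators of the programme, 14 of 20 were higher and 0 lower, with a median of 0.94. The repressor E2f8 (1.92), Mybl2, which encodes B-MYB (1.84), and Foxm1 (1.51) led, while the pocket protein gene Rbl2 (-0.26), Nfyc (-0.09) and Lin52 (0.05) did not pass. Foxm1 had 128 UMIs or 10.9 CPM against 66 or 3.83.

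Inhibitors and exit genes divided. Of 12, 5 were higher and 1 lower, near the shares of all genes, with a median of 0.35 beside 0.31 for all genes. Cdkn1c (1.43), Cdkn2d (1.01), both cyclin-dependent kinase inhibitors, and Pkmyt1 (0.86), which holds Cdk1 inactive, were higher. Btg1, an antiproliferative gene, was lower with 7952 UMIs or 678 CPM against 20283 or 1176, at -0.80, and Ccng1 was at -0.51 and Ccng2 at 0.07. Of the 28 DNA replication genes 27 were higher and 0 lower, with a median of 1.67. Mcm7 (2.45) and Mcm3 (2.36), of the replicative helicase, and Cdc45 (2.31), which activates it, led, and Fen1 (-0.43), Ccne1 (0.68) and Pcna (0.79) had the lowest ratios. In basal cells 2 of 27 replication genes were higher, Mcm5 (0.62) and Chaf1b (0.61), and 0 lower, with a median of 0.17, beside 1 higher and 10 lower of 48 further mitosis genes with a median of -0.42. Over all basal genes 5.64% were higher and 7.22% lower.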

How the data were processed

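Per the labels' protocols, cells were run with the 10x Chromium 3' V3 kit, and what the authors deposited are UMI counts, whole numbers for each gene in each barcode. The submitters' processing notes name GRCm38 (mm10) and Seurat 4.0.4; aligner, counter and barcode rule: not given in the sources used here. Of 27179 features, 1314 without a symbol (1.74% of knockout and 1.36% of wild type UMIs) were left out. Cells with at least 500 genes, 1000 UMIs and at most 20% mitochondrial UMIs were kept. Scrublet (scanpy 1.11.5) called 123 wild type doublets and 1 in the knockout, all removed, and its threshold did not work in the knockout; 37 more knockout cells lay above the wild type threshold and were kept. Clusters (Leiden, resolution 1, leidenalg 0.10.2) were made without the members, the further mitosis and DNA replication genes, and milk, lipid, mitochondrial and ribosomal genes. Replication-dependent histone genes were not left out. The clusters were named from marker lists, so class borders may differ from the study's.

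UMIs were summed per library and class. A gene was compared where its UMIs summed over both libraries came to 50 or more, and higher or lower means at least 1.5-fold, a rule of size. Ratios have exact conditional intervals, shares Clopper-Pearson and differences of shares Newcombe intervals. In simulated luminal data of 11144 genes, 2-fold changes had a median estimate of 0.99 on the log2 scale, and intervals held 95.6% of true values. These counts were drawn from the Poisson model that the intervals rest on, so the coverage was built in. The simulation did not hold the gathering of UMIs in a minority of cells. In each role group the members with the highest and lowest luminal ratio are given in full, in the other classes the 4 highest and 4 lowest, and in each further list the 3 highest and 3 lowest; other names were chosen after their values were seen. The members, lists and alternatives were chosen with earlier results of these data known.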

Additional observations from a re-analysis of the deposited data

Results flagged for a closer look

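The share of mitotic cells was higher in the knockout in luminal cells and lower in the other classes: the knockout minus wild type difference was 17.7 percentage points in luminal cells, -1.11 in basal cells and -5.26 in hormone-sensing cells. The basal difference turned to 0.39 without thinning and to 2.73 with all 44 members counted, and the hormone-sensing one to 7.81 with all 44. The difference between the classes was not tested, since each genotype had 1 library. In the same way 10 members were past 1.5-fold higher in luminal and lower in basal knockout cells, as were 1.37% of the 10523 genes with enough UMIs in both, which was not tested either. Mitotic cells were also found outside the epithelium, in cells that no comparison used: 6 of 60 non-epithelial knockout cells (10.0%) and 19 of 161 wild type cells (11.8%), with a difference of -1.80 points (-9.75 to 9.15). Most of them, 5 and 17, were in a cluster that held endothelial and immune genes such as Cdh5, Fabp4 and H2-Aa.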

How the results depend on the processing

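No paired analysis was possible because each genotype had 1 library. Alternatives changed 1 choice at a time; those within cluster 4 (alveolar-like), within cluster 5 (progenitor-like), without cluster 11 (histone-led) and with shallow cells counted as not mitotic were added after seeing the data. The luminal difference in mitotic share was above 0 under all 17 alternatives, from 8.71 to 30.3 points: 13.5 thinned to 1000 UMIs, 21.7 at 2500, 29.1 without thinning, 13.0 at 5 or more core UMIs, 30.3 with all 44 members counted, 8.71 within cluster 4 and 22.4 without cluster 11. Within cluster 11 alone, which was not among these alternatives, the difference was -17.1 points (-35.4 to 0.976). That cluster held 148 of the 294 wild type mitotic luminal cells. The luminal median log2 ratio was above 0 under all 14, at 1.86 on all UMIs (which moved the median of all genes from 0.31 to 0.88), 0.99 with the median of all genes at 0, 0.74 within cluster 4 (21 higher, 1 lower of 34) and 2.03 without cluster 11. Ect2 had 0 UMIs in the 89 knockout cells of cluster 4, and with the floor of 3 UMIs its ratio there was -0.10. The basal share difference was -6.74 thinned to 2500 UMIs, which left 1742 wild type cells, and -3.41 with deeper cells, and turned to 0.39 without thinning and 2.73 with all 44 members. The basal median was -0.95 with deeper cells, where 34 were lower (8.36% of all genes), and 1 was lower at 2-fold (1.89%). In hormone-sensing cells the difference turned to 7.81 points with all 44 members; the causes of these moves were not tested. Their median was -0.91 at 20 UMIs per gene (9 lower of 16, 17.6% of all genes) and -1.22 at 1 UMI (33 of 44, 23.3%), and 1 was lower at 2-fold (4.55%). Inhibitors and exit genes higher numbered 10 of 12 on all UMIs (68.6% of all genes) and 2 with the median of all genes at 0 (15.4%).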

Other observations

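Replication-dependent histone genes and replication genes were read in the mitotic cells as a further view of the cycle. The histone list was chosen after seeing that such genes led 1 luminal cluster. How far the 3' chemistry captures histone transcripts was not tested, so their CPM may not give their level in the cell. In mitotic luminal cells 63 histone genes of the H1, H2A, H2B, H3 and H4 families together stood at 1877 CPM (1839 to 1915) in knockout cells, against 1909 CPM (1859 to 1960) in wild type cells. The 28 DNA replication genes stood at 1960 (1922 to 1999) against 1124 (1085 to 1163) in the same cells. Within mitotic luminal cells 19 of the 28 were past 1.5-fold higher and 1 lower, where 18.3% of all genes were higher and 9.82% lower. In mitotic basal cells the histone genes stood at 1922 CPM in knockout and 1430 CPM in wild type cells, and the replication genes at 2293 and 1870, while the core mitosis genes, which chose these cells, stood at 7715 and 9464. In the histone-led luminal cluster the histone genes stood at 3511 CPM in 29 knockout and 2590 in 217 wild type cells, and the core genes at 2727 and 2724.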
